A study of Mus musculus with 6 samples.

Results

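Patrolling monocytes are the monocytes that crawl along the inner wall of small blood vessels. They were picked out of sorted liver immune cells as barcodes with no T cell receptor (TCR) contig, with at least 1 unique molecular identifier (UMI, 1 captured RNA molecule) of Csf1r and at least 1 of Ace, Treml4 and Adgre4 together. They also had 0 UMIs of F13a1, Fn1, Flt3, Cd3d, Cd3e, Cd79a and Ncr1. The rule found 373 barcodes among 23860, and 369 of them stayed among the 22689 cells kept after filters on genes per cell, mitochondrial RNA and doublets. They were 95 of 6201 kept cells in the library of the plain high-fat diet (WT HFD), 170 of 9672 in that with HDCA (WT HFD+HDCA) and 104 of 6816 in the knockout (iNKT KO HFD+HDCA).

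The study fed mice for 12 weeks and sorted CD45+ mononuclear cells from the liver, 10000 cells for each library. Wild-type mice on a 60% high-fat diet (HFD) gave the first group. For the second group, the secondary bile acid hyodeoxycholic acid (HDCA) made up 0.25% of the same feed of wild-type mice, and Ja18-/- mice (iNKT KO), whose invariant natural killer T cells cannot form, gave the third on the diet with HDCA. No knockout library without HDCA was analysed here, so the knockout was compared only with the wild type on the same diet, and all 3 groups shared the high-fat diet. The treatment text of the labels speaks of CD4+ lymphocytes, while the extraction text speaks of CD45+ cells. Cells without T cell genes were present in every library. Each group was 1 library, and how many mice went into it was not given in the sources used here. No difference between groups was therefore tested: every ratio below compares 2 libraries, and its bracketed 95% interval, like those of shares, covers counting error only. A lower level of a gene in a sum of cells can come from fewer cells making it or from less RNA of it per cell, and per-cell values are given where they separate these.

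As background, patrolling monocytes arise from classical Ly6C-high monocytes through the nuclear receptor NR4A1, depend on the chemokine receptor CX3CR1, and crawl by the integrin LFA-1, of which Itgal encodes the alpha chain. They clear debris and damaged cells from the vessel wall, and in the liver they are found in the sinusoids. Classical monocytes carry CCR2, by which they leave the bone marrow and enter inflamed tissue, and they can mature into macrophages.

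The libraries held 44332213, 70776925 and 46600746 UMIs in the order plain diet, HDCA, knockout, which is the order of all triplets of values below. The patrolling monocytes held 462296, 865534 and 554851 of them, with a median of 4528, 4443.5 and 4747 UMIs per cell and 1893, 1952.5 and 2056 genes. Traj18, the joining segment removed in the knockout, had 172, 160 and 0 UMIs over all barcodes of the libraries and 0 in the patrolling monocytes of each. The zero among the knockout barcodes checks the library, while the members themselves, which make no TCR, carry no such check. The libraries shared between 67 and 93 barcode sequences in pairs, and no member's barcode was a member in another library.

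Markers of other cell types were summed over the members. The 6 basophil and mast cell markers were at 0 in every library. The 8 T cell markers summed to 12, 4 and 4 UMIs, and the 8 markers of natural killer cells and ILC1 to 24, 16 and 11. The 8 neutrophil markers summed to 102, 6789 and 119 CPM (counts scaled to 1000000 UMIs of the summed members), and 1 cell held 97.8% of those in WT HFD+HDCA. The 8 B cell markers summed to 348, 169 and 200 CPM, with 44.7% in 1 cell of WT HFD. The 11 Kupffer cell markers summed to 664, 622 and 395 CPM, over 35, 85 and 54 cells with 76.5%, 23.2% and 54.3% in 1 of them, and Clec4f, which marks Kupffer cells, had 10, 0 and 0 UMIs. The 8 markers of lipid-associated macrophages, among them Cd9, Cd63 and Lgals3, summed to 1226, 1500 and 1341 CPM over 77, 148 and 96 members, against 2426, 2433 and 2462 CPM in the monocytes with F13a1 or Fn1. The 6 plasmacytoid dendritic cell markers, of which Bst2 is also a type I interferon gene, summed to 234, 280 and 187 CPM over 50, 91 and 53 members, against 319, 327 and 261 CPM. The top cell of a library held 11.5% of either list or less. The 8 conventional dendritic cell markers summed to 147, 93.6 and 27.0 CPM, over 19, 23 and 8 cells with 51.5%, 58.0% and 33.3% in 1 of them. The 9 hepatocyte markers summed to 130, 158 and 159 CPM, spread over 32, 60 and 45 cells. A setting chosen after seeing the data left out cells with more than 4 UMIs of neutrophil genes (S100a8, S100a9, Camp), B cell genes (Ebf1, Pax5, Ms4a1), macrophage genes (C1qa, C1qb, C1qc, Clec4f, Vsig4) or dendritic cell genes (Cd209a, Clec9a, Xcr1), and kept 89, 163 and 102 members. Values under that setting, called without the cells holding other types' genes, are given where it moved a result.

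The label was checked on genes the rule did not use. Classical-type monocytes, defined by at least 1 UMI of F13a1 and Fn1 together and 0 of Ace, Treml4 and Adgre4, served as the comparison (41, 102 and 31 cells), beside cells with UMIs of both sets, called both (117, 234 and 128 cells). Eno3, the muscle-type enolase long used as a patrolling monocyte marker, was at 344, 444 and 488 CPM in patrolling monocytes, at 51.9, 43.9 and 45.0 in the cells with both sets, and at 0, 3.20 and 0 in classical-type monocytes. Cd300e, an activating receptor, was at 190, 222 and 220 CPM in patrolling monocytes and at 0 UMIs in the classical-type cells of all 3 libraries. Both genes ranked the classes in the same order in every library. Fcgr4, the low-affinity IgG receptor FcγRIV, was at 158, 230 and 223 CPM against 4.63, 5.33 and 8.89. Cd36, a scavenger receptor for oxidised lipid, was at 296, 281 and 314 CPM against 6.95, 4.26 and 5.93, and Fabp4, a fatty acid carrier, was at 353, 267 and 328 CPM against 0, 1.07 and 0. Itgax (CD11c) was at 97.3, 94.7 and 114 CPM against 0, 5.33 and 0. Spn (CD43) was at 324, 321 and 389 CPM against 30.1, 43.7 and 59.3. Nr4a1 itself was at 971, 850 and 874 CPM against 350, 304 and 385, and Cx3cr1 at 286, 324 and 332 against 167, 142 and 172. Nr4a1 and Cx3cr1 thus separated the classes less than Eno3 or Cd300e did. Ear2, a ribonuclease of a family with near-identical copies whose reads could be split between them, was at 606, 749 and 833 CPM against 32.4, 39.4 and 32.6.

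**Figure D1:**
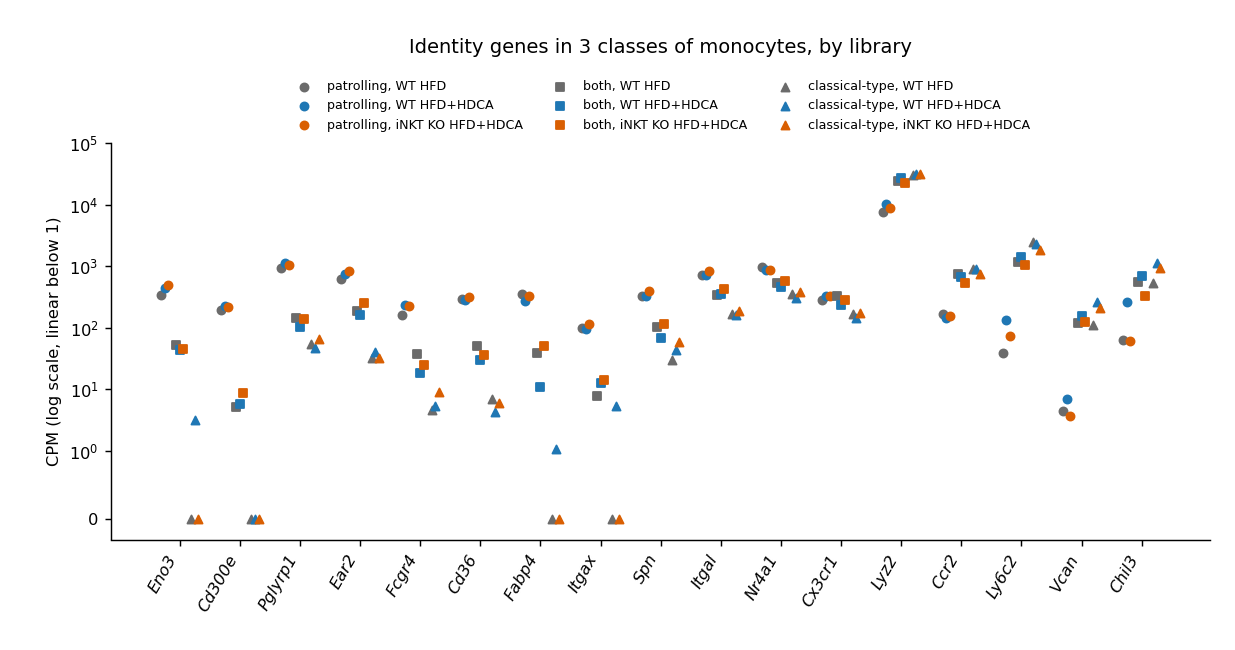
Level of 17 identity genes in CPM (log axis, linear below 1) in patrolling monocytes (circles), cells with both marker sets (squares) and classical-type monocytes (triangles), 1 point a library. Eno3, Cd300e and Fabp4 are at or near 0 in classical-type monocytes, while Ly6c2 and Vcan are lowest in patrolling monocytes.

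The genes of classical monocytes lay the other way. Ly6c2, which encodes the surface protein Ly6C2, was at 38.9, 134 and 73.9 CPM in patrolling monocytes against 2474, 2286 and 1802 in classical-type cells. Ccr2 was at 169, 143 and 153 CPM against 880, 897 and 747. Vcan, a matrix proteoglycan, was at 4.33, 6.93 and 3.60 CPM against 111, 263 and 210. Lysozyme Lyz2 was high in both, at 7512, 10112 and 8873 CPM in patrolling and at 30184, 31300.2 and 31894 in classical-type monocytes.

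Because the rule chose the cells by expression, these differences are a description. Of 7089 genes with at least 50 UMIs over the 6 sums, 528 (7.45%) were at least 2-fold apart the same way in all 3 libraries. 306 of them (4.32%) were higher in patrolling monocytes and 222 (3.13%) lower. Without the 2-fold line, 28.4% of the 7089 genes were higher and 26.2% lower in all 3 libraries. All 22 genes of the patrolling identity list, none of them in the rule, were higher in all 3 libraries, 19 of them at least 2-fold, with median log2 ratios of 3.54, 3.16 and 3.71. All 13 genes of the classical identity list were lower, 12 at least 2-fold. 8 of 9 sterol efflux genes were higher in all 3 libraries and 7 at least 2-fold: Apoe, the lipid-carrying apolipoprotein, was at 4095, 2626 and 3623 CPM against 503, 732 and 708. The phospholipid transfer protein gene Pltp was at 357, 221 and 339 CPM against 20.9, 13.8 and 26.7. Among survival genes, Bcl2 was at 355, 165 and 216 CPM against 6.95, 5.33 and 8.89. 14 of 22 type I interferon genes, 12 of 15 glycolysis genes and 14 of 20 oxidative phosphorylation genes were lower in all 3 libraries, beside the 26.2% of all genes.

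Other genes above classical-type monocytes had no part in either rule or identity list. S1pr5, a sphingosine-1-phosphate receptor that steers cells out of the bone marrow, was at 212, 155 and 200 CPM against 18.5, 8.52 and 8.89. Pparg, the lipid-sensing nuclear receptor, was at 231, 229 and 216 CPM against 2.32, 4.26 and 2.96. Tgfbr3, the betaglycan co-receptor, was at 95.2, 109 and 112 CPM against 4.63, 0 and 0, and Lilra5, an activating leukocyte Ig-like receptor, at 108, 82.0 and 115 against 0, 1.07 and 0. C1qa and C1qc, complement genes of macrophages, also ranked among the 12 highest, but 1 cell of each library held most of their UMIs and only 1, 4 and 1 cells had a UMI of C1qa. At the low end stood Ly6c2 and Vcan, with Lmna, Capg, Ccr1 and the granule genes Prtn3 and Mmp8.

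Single cells were compared by the share with a UMI of a gene. Eno3 was detected in 45 of 95, 113 of 170 and 71 of 104 patrolling monocytes and in 17 of 117, 36 of 234 and 23 of 128 cells with both sets. It was seen in 0 of 41, 2 of 102 and 0 of 31 classical-type monocytes. The share was 1.11%, 1.30% and 1.74% in B cells and 4.32%, 4.76% and 4.18% in T cells. Free RNA was not estimated, so these shares cannot be split into free RNA and low expression. B cells had a median of 4494, 4377 and 4216 UMIs, near that of patrolling monocytes. A count of 0 of 41 cells still allows a share of up to 8.60% of cells with a UMI, and 0 of 31 one of up to 11.2%, which limits cells with a UMI and not cells expressing the gene. After each cell was thinned to 2000 UMIs, leaving out 20, 21 and 12 shallower members, Eno3 was seen in 42.7%, 57.7% and 51.1% of patrolling monocytes. Before thinning, Cx3cr1 and Nr4a1 did not order the classes of WT HFD as Eno3 did. In WT HFD, Cx3cr1 was seen in 60.0% of patrolling monocytes, 81.2% of the cells with both sets and 65.9% of classical-type cells, and Nr4a1 in 84.2%, 89.7% and 80.5%, at unequal depth. In thinned cells of that library the shares were 40.0%, 48.2% and 35.0% for Cx3cr1 and 78.7%, 60.5% and 40.0% for Nr4a1. Pglyrp1, a peptidoglycan-binding protein, was at 917, 1118 and 1036 CPM in patrolling monocytes, but it was also seen in 38.8%, 46.0% and 30.3% of B cells, so its share of cells with a UMI is not used here. The sum of the 22 patrolling genes exceeded that of the 13 classical genes in 83 of 95, 152 of 170 and 96 of 104 patrolling monocytes.

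**Figure D2:**
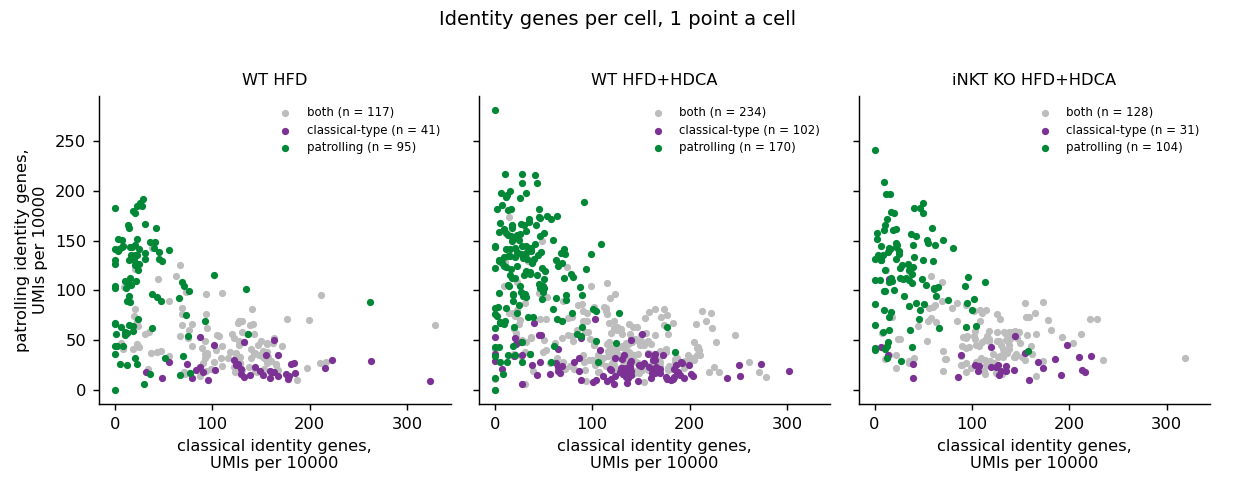
Each point is a cell, placed by its UMIs of 13 classical identity genes (x axis) and of 22 patrolling identity genes (y axis), both per 10000 UMIs of the cell, in the 3 libraries. Patrolling monocytes have a median of 108, 123 and 115 per 10000 on the y axis, and the cells with both sets lie between them and the classical-type cells.

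The members varied in how much of the program they showed. All of Ace, Treml4 and Adgre4 were seen in 45 (47.4%), 103 (60.6%) and 63 (60.6%) of the members, 2 of them in 35, 40 and 28, and 1 of them in 15, 27 and 13. Cells with all 3 were deeper, with a median of 5672, 5673 and 5763 UMIs against 1820, 1874 and 2004 in those with 1. Ly6c2 was seen in 9 (9.47%), 27 (15.9%) and 16 (15.4%) members. Just inside the rule, with 1 UMI of the 3 genes, stood 9, 15 and 4 cells with a median of 1166, 1673 and 1443.5 UMIs. Just outside, with 1 UMI of F13a1 or Fn1 beside the 3 genes, stood 15, 23 and 11 cells with a median of 7952, 6301 and 6699 UMIs. Patrolling monocytes had a median of 4528, 4443.5 and 4747 UMIs and classical-type monocytes of 10902, 9796 and 11195. In thinned cells the patrolling share of monocyte-type cells was 41.7%, 39.6% and 41.9%, against 37.5%, 33.6% and 39.5% unthinned. The edge between the patrolling cells and those with both sets therefore moved with depth.

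A minority of members carried MHC class II, the molecules that present antigen to CD4 T cells. H2-Aa, H2-Ab1 and H2-Eb1, which encode the alpha and beta chains, gave at least 1 UMI in 37 of 95, 59 of 170 and 37 of 104 members. H2-Aa alone was seen in 30.5%, 27.1% and 31.7% of members and in 4.96%, 5.79% and 5.63% of T cells, which had a median of 7096.5, 6977 and 6803 UMIs, and in thinned cells in 25.3%, 21.5% and 29.3% of members and 1.76%, 1.73% and 1.53% of T cells. 22 (23.2%), 37 (21.8%) and 25 (24.0%) members reached 10 UMIs of the 3 per 10000, a line drawn after seeing the data, and the 10, 17 and 10 highest members held 96.1%, 92.1% and 85.8% of these UMIs. Cells above the line had less Cd300e, at 46.8, 33.6 and 70.6 CPM against 246, 293 and 278 in the cells below it. They also had less Nr4a1, at 662, 566 and 597 CPM against 1090, 958 and 982, and less Pglyrp1, at 257, 231 and 161 against 1171, 1456 and 1378. Itgax went the other way, at 132, 134 and 154 CPM against 83.8, 79.7 and 97.7. The WT HFD member with the most held 14.8 UMIs of the patrolling identity genes and 66.7 of the classical ones per 10000. Whether all cells above the line are patrolling monocytes was not tested. Ccr2 was higher above the line, at 273, 340 and 295 CPM against 129, 68.6 and 97.7. Cd209a, a lectin of monocyte-derived dendritic cells, was seen only above the line, in 3, 1 and 0 cells. The share of cells above the line thus spanned 21.8% to 24.0% over the libraries, within one another's counting intervals.

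**Figure D3:**
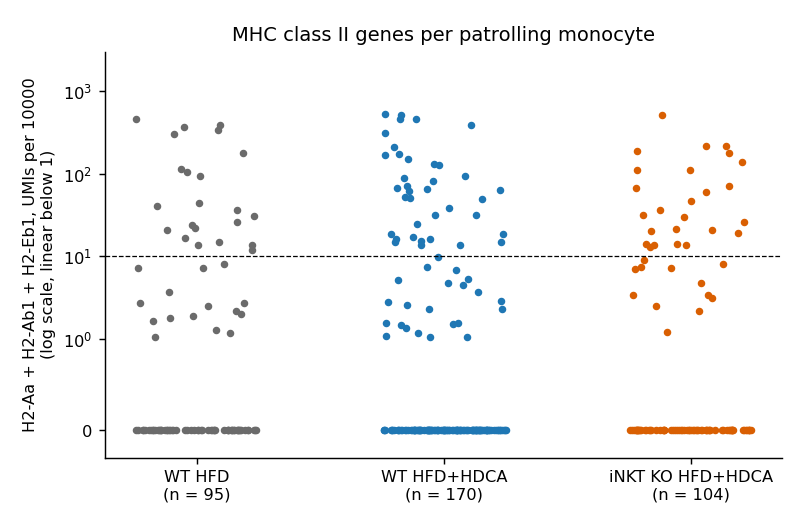
Summed UMIs of H2-Aa, H2-Ab1 and H2-Eb1 per 10000 UMIs (log axis, linear below 1) in each patrolling monocyte, 1 point a cell, spread sideways at random. The dashed line marks 10 per 10000: 22, 37 and 25 cells lie above it, and most cells of every library lie at 0.

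Patrolling monocytes were a small share of the kept cells in every library. The share was 1.53% (1.24% to 1.87%) in WT HFD, 1.76% (1.51% to 2.04%) in WT HFD+HDCA and 1.53% (1.25% to 1.85%) in the knockout. The ratio with HDCA was 1.15 (0.887 to 1.49) and that of the knockout to the wild type was 0.868 (0.673 to 1.11). Both intervals hold 1. As a share of the 253, 506 and 263 monocyte-type cells, patrolling monocytes made up 37.5%, 33.6% and 39.5%, and the ratios turned to 0.895 (0.692 to 1.16) and 1.18 (0.913 to 1.51).

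With HDCA in the diet, the patrolling monocytes of wild-type mice, summed, had higher levels of interferon, inflammatory and classical monocyte genes than those of WT HFD. Their summed level of sterol efflux genes was lower. For the type I interferon and inflammatory lists the median cell did not follow the sum, as given below. Of 4147 genes with at least 50 UMIs in both libraries together, 99 (2.39%) were at least 2-fold apart: 63 (1.52%) higher and 36 (0.868%) lower with HDCA. Over the 6823 genes with at least 20 UMIs, 48.4% were higher and 51.6% lower, with a median log2 ratio of -0.01. This WT HFD+HDCA library also serves as the reference for the knockout, so a high value in it makes both ratios large, and neither comparison supports the other.

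12 of 14 measured genes of the interferon gamma list were higher with HDCA, with a median log2 ratio of 0.63, and 15 of 20 of the type I interferon list, with a median of 0.31. In the monocytes with F13a1 or Fn1, 8 of 18 and 11 of 23 were higher, with medians of -0.01 and 0.00, beside 49.6% of all their genes higher and 50.4% lower. The difference between the classes was not tested. Psmb9, a subunit of the immunoproteasome, had 63 UMIs in WT HFD (136 CPM) and 190 in WT HFD+HDCA (220 CPM), a ratio of 1.61 (1.21 to 2.18). Gbp2, a guanylate-binding GTPase that interferon gamma induces, was at 23.8 and 82.0 CPM, a ratio of 3.45 (1.82 to 7.22), on 5 and 24 cells, and 4.90 without its top cell in each library. Ube2l6, which charges the interferon-induced modifier ISG15, was at 19.5 and 60.1 CPM, a ratio of 3.09 (1.51 to 7.12). Irf1 and Ifi27l2a had ratios of 1.07 (0.820 to 1.40) and 1.06 (0.944 to 1.18). The median cell held 11.0 UMIs of the interferon gamma list per 10000 in WT HFD and 13.1 with HDCA, while for the type I list it held 15.5 and 14.4. The median cell thus lay higher for the first list and lower for the second.

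9 of 13 measured inflammatory cytokine and chemokine genes were higher with HDCA, with a median log2 ratio of 0.52, against 6 of 17 in the monocytes with F13a1 or Fn1. Cxcl2, a chemokine that draws neutrophils, had 128 UMIs in 20 cells (277 CPM) in WT HFD and 590 in 47 cells (682 CPM) with HDCA, a ratio of 2.46 (2.03 to 3.00). Without the cell with the most Cxcl2 in each library the ratio was 3.11. Cxcl16 had 12 UMIs in 6 cells and 65 in 15 cells, a ratio of 2.89 (1.55 to 5.89), and its log2 ratio of 1.53 became 0.62 without the cells holding other types' genes and 0.51 as a mean over cells. The cytokine gene Tnf was at 95.2 and 136 CPM, a ratio of 1.43 (1.01 to 2.07), and Il1b lay the other way, at 322 and 250 CPM. The median cell held 15.3, 15.5 and 15.3 UMIs of the list per 10000 in the 3 libraries, while the 10, 17 and 10 highest cells held 36.0%, 45.4% and 28.6% of its UMIs. The summed list thus differed while the median cell did not.

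Some genes of classical monocytes were higher with HDCA too: 8 of 11 measured, with a median of 0.46. Ly6c2 had 18 UMIs in 9 cells and 116 in 27 cells, a ratio of 3.44 (2.08 to 6.01). Hp (haptoglobin) was at 273 and 439 CPM, a ratio of 1.61 (1.31 to 1.99), and Plac8 at 1127 and 1757 CPM, a ratio of 1.56 (1.41 to 1.73). Cebpd, an inflammation-induced transcription factor that is not in the classical list, was at 43.3 and 110 CPM, a ratio of 2.54 (1.55 to 4.34). Of the monocyte transcription factor list, 12 of 19 measured genes were lower with HDCA and 7 higher, with a median of -0.17. Chil3 had 53.6% of its 222 UMIs with HDCA in the cell that also held the neutrophil genes, and without the top cell its ratio was 2.39 rather than 4.09. The share of members with Ly6c2 moved with these levels, and whether cells near the edge of the rule set them was not tested. Patrolling identity genes were balanced, with 12 of 22 higher and a median of 0.04.

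Sterol efflux genes lay lower with HDCA. These genes move cholesterol and phospholipid out of the cell and are targets of the oxysterol receptor LXR. 7 of 9 were lower, with a median of -0.31. Apoe was at 4095 CPM in WT HFD and 2626 with HDCA, a ratio of 0.641 (0.603 to 0.682). 23.9% of the Apoe UMIs of WT HFD came from 1 cell, and without the top cells the ratio was 0.772. Pltp was at 357 and 221 CPM, a ratio of 0.618 (0.499 to 0.766). Abcg1, a cholesterol transporter, was at 147 and 99.4 CPM, a ratio of 0.675 (0.486 to 0.943). The monocytes with F13a1 or Fn1 had all 10 measured genes of the list lower, with a median of -0.47. They pool the cells with both sets (117, 234 and 128) and the classical-type cells (41, 102 and 31), in proportions that differed by library. In them 16 of 21 patrolling identity genes were also lower with HDCA, with a median of -0.24. Whether that mix set their sterol efflux values was not tested. 17 of 20 oxidative phosphorylation genes were higher, with a median of 0.22, and the uncoupling protein gene Ucp2 was at 1146 and 1593 CPM, a ratio of 1.39 (1.26 to 1.54).

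By the rule for single genes, the highest ratios with HDCA belonged to Gbp2, Cep85, Ube2l6, Cxcl16, Ms4a4a, Mrpl51, C1d and Isca2. Cep85, a centrosome protein gene, had 32 UMIs in 23 cells and 198 in 90 cells (69.2 and 229 CPM), a ratio of 3.30 (2.27 to 4.96). In the monocytes with F13a1 or Fn1 its ratio was 1.80. Ms4a4a, a four-transmembrane protein gene of monocytes, was at 110 and 313 CPM, a ratio of 2.84 (2.10 to 3.91), against 1.56 in the other monocytes. The lowest ratios belonged to Map2k5, Dapk1, Arhgef18, Zfp217, Kmt2b, Xab2, Ero1b and Kif13b. Map2k5, a kinase upstream of ERK5, was at 97.3 and 32.4 CPM, a ratio of 0.332 (0.20 to 0.544). Dapk1, the death-associated protein kinase, was at 145 and 60.1 CPM, a ratio of 0.415 (0.283 to 0.604). Bcl2, which protects cells from apoptosis, was at 355 and 165 CPM, a ratio of 0.466 (0.370 to 0.586), with 29.9% of its WT HFD UMIs in 1 cell and a ratio of 0.622 without it. In the monocytes with F13a1 or Fn1 the ratio of Bcl2 was 0.452. Of the survival list, 8 of 12 measured genes were higher with HDCA in patrolling monocytes and 4 lower, with a median of 0.11.

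**Figure D4:**
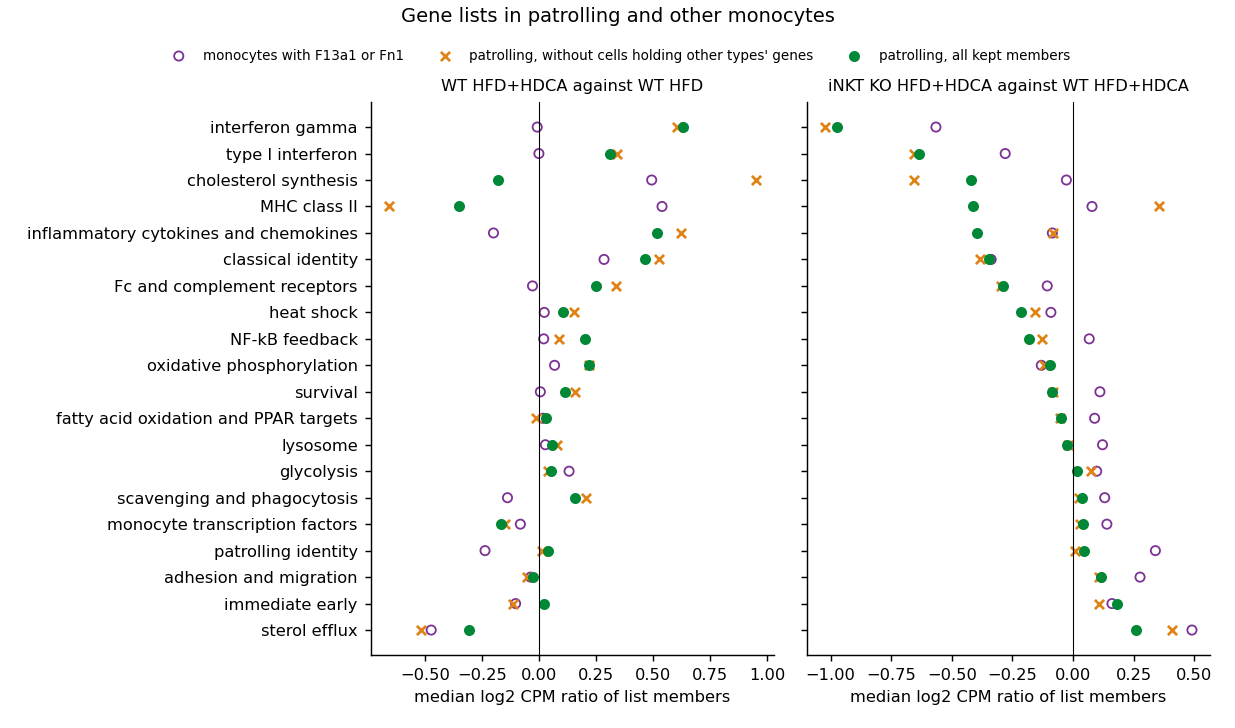
Median log2 CPM ratio of the members of 20 gene lists (x axis) with HDCA against WT HFD (left) and in the knockout against the wild type on HDCA (right), in all patrolling monocytes (filled circles), without the cells that hold other types' genes (crosses) and in the monocytes with F13a1 or Fn1 (open circles). The interferon gamma list lies at 0.63 on the left and at -0.97 on the right.

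In the knockout, interferon genes lay lower in patrolling monocytes than in the wild type on the same diet, and their 2 lists had the lowest medians of the 20 lists with at least 5 measured genes. All 14 measured genes of the interferon gamma list were lower, with a median log2 ratio of -0.97, and 17 of 20 type I interferon genes, with a median of -0.64. Over the 6967 genes with at least 20 UMIs, 54.0% were higher and 46.0% lower, with a median of 0.04. Of 4335 genes with at least 50 UMIs, 77 (1.78%) were at least 2-fold apart: 18 (0.415%) higher and 59 (1.36%) lower. Among genes with that many UMIs, 4 of 9 of the interferon gamma list and 4 of 15 of the type I list were at least 2-fold lower, and none of either was 2-fold higher. The medians without the cells holding other types' genes were -1.02 and -0.66.

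Irf1 (ENSMUSG00000018899), a transcription factor that interferon gamma induces, had 86, 172 and 51 UMIs in 41, 85 and 35 cells, or 186, 199 and 91.9 CPM, and the knockout stood at 0.463 (0.332 to 0.636) of the wild type on HDCA. Irf1 was lowest in the knockout library, and its wild-type levels lay within each other's intervals. Psmb9 was at 136, 220 and 112 CPM, a ratio of 0.509 (0.376 to 0.681), and Tap1, which loads peptide onto MHC class I, at 71.4, 106 and 54.1, a ratio of 0.509 (0.325 to 0.776). Gbp2 was at 23.8, 82.0 and 34.2 CPM, a ratio of 0.417 (0.238 to 0.700). Cxcl10, a chemokine for T cells, had 11, 56 and 6 UMIs, a ratio of 0.167 (0.0588 to 0.387), but 46.4% of the 56 came from 1 cell. For Psmb9 and Gbp2 the knockout lay near WT HFD, and both were highest in WT HFD+HDCA.

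Of the type I interferon genes, Oas1a, which senses double-stranded RNA and has near-identical copies that could share its reads, was at 73.5, 101 and 46.9 CPM, a ratio of 0.466 (0.289 to 0.730). Stat2, a part of the factor that relays type I interferon signals, was at 47.6, 58.9 and 21.6 CPM, a ratio of 0.367 (0.178 to 0.698). Irf9, the DNA-binding part of that factor, was at 77.9, 52.0 and 21.6 CPM, a ratio of 0.416 (0.20 to 0.800). Irf9 lies on chromosome 14, as Traj18 does, and whether sequence linked to the knocked-out segment bears on its level was not tested. Ifi27l2a, the interferon-induced gene with the most UMIs, was at 1023, 1080 and 674 CPM, a ratio of 0.624 (0.552 to 0.704), and Bst2 (tetherin) at 151, 194 and 115, a ratio of 0.594 (0.438 to 0.797). Isg15 was an exception, at 47.6, 57.8 and 73.9 CPM, a ratio of 1.28 (0.825 to 1.97).

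The monocytes with F13a1 or Fn1 of the knockout also had 16 of 17 interferon gamma genes lower, with a median of -0.57, and 22 of 23 type I genes, with a median of -0.28, beside 49.9% of all their genes higher and 50.1% lower. In those cells the ratio of Irf1 was 0.676 and that of Psmb9 0.738. Whether the lists differ between the classes was not tested. Per cell, the interferon gamma list had a median of 11.0, 13.1 and 8.30 UMIs per 10000 in patrolling monocytes. The type I list had a median of 15.5, 14.4 and 8.82 per 10000. The 10, 17 and 10 highest cells held 33.2%, 36.6% and 36.1% of the interferon gamma UMIs, so the knockout was lower in the median cell as well as in the sum.

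Promoter sequence is shown for 5 interferon genes that were at least 2-fold lower in the knockout, since their levels lay lower together. Interferon-activated factors are known to bind the core of the interferon-stimulated response element (GAAA, any 2 bases, GAAA) and the gamma-activated site (TTCNNNGAA). Both were searched on both strands in the 250 bases before the start of each gene, in RefSeq promoters of GRCm38.p6. The response element core was in 936 of 27025 genes (3.46%), in 9 of the 15 matched genes of the interferon gamma list and in 8 of 16 of the type I list. TTCNNNGAA was in 2197 genes (8.13%), in 6 of 15 and in 4 of 16. The lists were built from known interferon targets, so a match is a description and not a site. In the sequences below, read 5′ to 3′ on the strand of the gene, capitals mark a match, and the response element core read on the other strand is TTTC, any 2 bases, TTTC. Irf9 had no match, and 1 of the 2 promoters of Irf1 is shown, the other being without a match.
Gbp2, chr3:142620413-142620662, plus strand, match 59 bases before the start: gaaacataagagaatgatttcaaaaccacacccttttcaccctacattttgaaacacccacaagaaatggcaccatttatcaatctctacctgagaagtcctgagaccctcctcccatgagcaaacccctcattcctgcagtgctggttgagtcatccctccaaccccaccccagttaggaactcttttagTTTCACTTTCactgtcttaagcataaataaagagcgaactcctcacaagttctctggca
Cxcl10, chr5:92348890-92349139, minus strand, match 213 bases before the start: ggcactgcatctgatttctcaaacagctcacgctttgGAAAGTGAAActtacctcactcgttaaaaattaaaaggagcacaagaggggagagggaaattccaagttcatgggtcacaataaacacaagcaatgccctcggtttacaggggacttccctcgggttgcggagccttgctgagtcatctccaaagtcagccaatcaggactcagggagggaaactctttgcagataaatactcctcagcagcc
Oas1a, chr5:120907526-120907775, minus strand, gamma-activated site letters 98 and response element core 20 and, overlapping it, 14 bases before the start: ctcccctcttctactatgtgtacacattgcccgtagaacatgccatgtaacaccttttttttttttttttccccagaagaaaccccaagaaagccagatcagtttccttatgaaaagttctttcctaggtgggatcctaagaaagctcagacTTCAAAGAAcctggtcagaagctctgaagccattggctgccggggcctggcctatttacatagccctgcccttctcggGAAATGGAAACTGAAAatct
Stat2, chr10:128270248-128270497, plus strand, match 222 bases before the start: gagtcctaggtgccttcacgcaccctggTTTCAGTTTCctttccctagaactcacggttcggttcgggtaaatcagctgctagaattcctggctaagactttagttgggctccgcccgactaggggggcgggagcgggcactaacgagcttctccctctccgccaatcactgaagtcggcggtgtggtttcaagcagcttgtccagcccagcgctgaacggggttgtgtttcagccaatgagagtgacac
Irf1, chr11:53769764-53770013, plus strand, gamma-activated site letters 90 bases before the start: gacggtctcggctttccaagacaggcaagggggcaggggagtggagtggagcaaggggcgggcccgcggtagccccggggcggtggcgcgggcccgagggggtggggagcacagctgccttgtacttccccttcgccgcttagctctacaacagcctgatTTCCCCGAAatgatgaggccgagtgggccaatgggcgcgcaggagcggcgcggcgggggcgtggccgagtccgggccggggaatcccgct

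**Figure D5:**
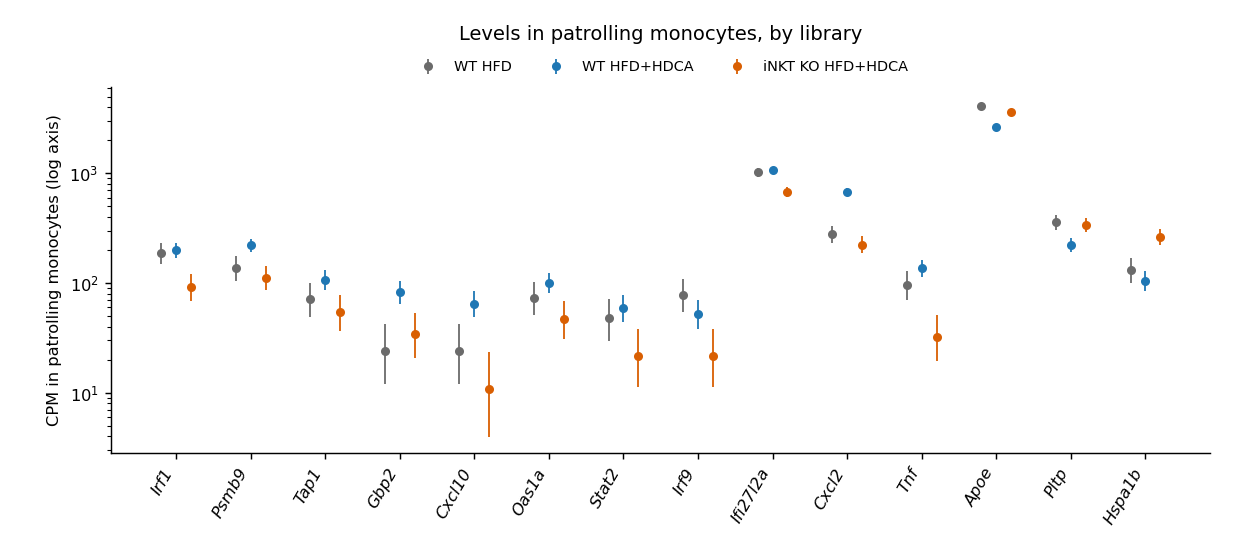
Level of 14 genes in patrolling monocytes in CPM (log axis), 1 point a library, with exact 95% Poisson intervals of the UMI counts. The interferon genes Irf1, Oas1a, Stat2 and Irf9 are lowest in the knockout, while Apoe and Pltp are lowest in WT HFD+HDCA.

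Inflammatory genes were lower in the knockout in part. 10 of 13 measured were lower, with a median of -0.40, which was -0.08 without the cells holding other types' genes. Tnf (ENSMUSG00000024401) had 44, 118 and 18 UMIs in 26, 57 and 15 cells, or 95.2, 136 and 32.4 CPM, a ratio of 0.238 (0.136 to 0.393). In the monocytes with F13a1 or Fn1 the ratio of Tnf was 1.57 (1.29 to 1.90). Cxcl2 (ENSMUSG00000058427) was at 277, 682 and 223 CPM, a ratio of 0.328 (0.268 to 0.399), and without the top cells again 0.328. Egr1, an immediate early transcription factor, was at 106, 137 and 45.1 CPM, a ratio of 0.328 (0.204 to 0.508), while 13 of 19 immediate early genes were higher, with a median of 0.18. Rasgef1b, an exchange factor gene that Toll-like receptor signals induce, was at 123, 125 and 41.5 CPM, a ratio of 0.332 (0.202 to 0.525). Its log2 ratio of -1.59 became -0.32 without the cells holding other types' genes and -0.80 in thinned cells, where that of Tnf went from -2.07 to -3.39. 14 of 16 NF-kB feedback genes were lower, with a median of -0.18. Without the cells holding other types' genes 10 of 16 were lower, with a median of -0.13. In the monocytes with F13a1 or Fn1, 10 of 16 were higher, with a median of 0.07. Tnf and Rasgef1b were thus lower in the knockout's patrolling monocytes and higher in its other monocytes, a contrast that was not tested.

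Complement and Fc receptor genes and classical monocyte genes lay lower in the knockout, and sterol efflux genes higher. 8 of 11 measured classical identity genes were lower, with a median of -0.35, which was -0.38 without the cells holding other types' genes and -0.34 in the monocytes with F13a1 or Fn1. The median cell held 20.6, 28.6 and 26.5 UMIs of the classical list per 10000. All 9 measured genes of the Fc and complement list were lower in the knockout, with a median of -0.29. Without the cells holding other types' genes 7 of 9 were lower and 2 higher, with a median of -0.30. In the monocytes with F13a1 or Fn1, 7 of 11 were lower, with a median of -0.11. Complement C3 was at 69.2, 120 and 59.5 CPM, a ratio of 0.495 (0.324 to 0.739), and Fcer1g, the signalling chain shared by activating Fc receptors, at 3394, 4484 and 3675, a ratio of 0.820 (0.776 to 0.865). 8 of 9 sterol efflux genes were higher in the knockout, with a median of 0.26. Apoe was 1.38 (1.30 to 1.47) times and Pltp 1.54 (1.25 to 1.89) times the wild type on HDCA, and Abca1, the main cholesterol efflux transporter, had 24, 32 and 40 UMIs, a ratio of 1.95 (1.19 to 3.21). In the other monocytes the ratios of Apoe and Pltp were 1.43 and 2.68. There 20 of 22 patrolling identity genes were also higher, with a median of 0.34, and the part of the mix of classes was not tested. Pecam1 (CD31), an adhesion molecule of the vessel wall and of monocytes, was at 71.4, 114 and 45.1 CPM, a ratio of 0.394 (0.243 to 0.616). Most of the adhesion and migration list lay the other way in patrolling monocytes of the knockout. 12 of its 17 measured genes were higher and 5 lower, with a median of 0.115.

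By the rule for single genes, the highest ratios in the knockout belonged to Il1rapl1, Pdgfb, Arhgef18, Hspa1b, Smad3, Rabgap1l, Ccdc192 and Vma21. Il1rapl1, a relative of the interleukin-1 receptor accessory chain, had 26, 37 and 111 UMIs in 22, 29 and 45 cells (56.2, 42.7 and 200 CPM), a ratio of 4.68 (3.20 to 6.99), and 3.90 in the other monocytes. As a mean over cells its log2 ratio went from 2.23 to 1.58. Pdgfb, a growth factor for vessel-supporting cells, had 19, 20 and 42 UMIs, a ratio of 3.28 (1.88 to 5.89), against 1.02 in the other monocytes. Hspa1b and Hspa1a, near-identical copies of the heat shock protein HSP70 whose reads may be shared, had ratios of 2.53 (1.93 to 3.33) and 2.21 (1.63 to 3.00), while 8 of 12 heat shock genes were lower. Smad3, which relays TGF-beta signals, was at 86.5, 50.8 and 121 CPM, a ratio of 2.38 (1.60 to 3.56). In cells thinned to 2000 UMIs its log2 ratio went from 1.25 to 0.57, and that of Arhgef18 from 1.44 to 0.70. The lowest ratios belonged to Tnf, Morrbid, Capg, Cxcl2, Egr1, Rasgef1b, Cd81 and Farsa. Morrbid, a long RNA that sustains short-lived myeloid cells, had 16, 49 and 8 UMIs. Capg, an actin-capping protein gene, had 14, 46 and 9. Cd81 had 36, 58 and 13 UMIs, 66.7% of those of WT HFD and 46.2% of those of the knockout in 1 cell, and its log2 ratio went from -1.52 to -0.57 in thinned cells.

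Summed MHC class II genes were lower in both comparisons over all members, 6 of 7 with HDCA and 7 of 7 in the knockout, with medians of -0.35 and -0.41. H2-Aa was at 2118, 1659 and 1047 CPM and Cd74, the invariant chain, at 6623, 6313 and 4738. Without the cells holding other types' genes the medians were -0.66 and 0.35, so the direction in the knockout turned. As a mean over cells the median with HDCA was 0.037, so that direction turned too. The median cell held 6.36, 5.37 and 11.2 UMIs of the list per 10000, highest in the knockout, where the sum was lowest. The summed markers of conventional dendritic cells fell in the same order, at 147, 93.6 and 27.0 CPM. They rested on 68, 81 and 15 UMIs, of which 1 cell held 51.5%, 58.0% and 33.3%. The part of these cells in the result was not tested. The 10, 17 and 10 highest cells held 90.2%, 82.6% and 71.0% of the UMIs of the MHC class II list, and how far they set its value was not tested.

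Receptors tied to the study's treatment were near or under the detection limit in the members. Gpbar1 (the bile acid receptor TGR5), Nr1h4 (FXR), Vdr, Ppara and Glp1r had 0 UMIs in each of the 3 libraries, which allows up to 6.49, 3.47 and 5.41 CPM. Pparg was the lipid-sensing receptor with a clear level, at 231, 229 and 216 CPM, and ratios of 0.988 (0.777 to 1.26) and 0.945 (0.747 to 1.19). 7 of 12 genes of fatty acid oxidation and PPAR targets were higher with HDCA and 4 of 11 in the knockout, with medians of 0.03 and -0.05. The summed UMIs of that list had ratios of 1.22 (1.13 to 1.33) with HDCA and 0.937 (0.871 to 1.01) in the knockout. The median cell held 16.4, 21.4 and 21.5 of its UMIs per 10000. The patrolling identity list lay at 0.05 in the knockout, with 14 of 22 higher, and none of its 22 genes was 2-fold apart in either comparison. Slc15a2, a peptide transporter, had 2, 23 and 0 UMIs in 1, 19 and 0 members. Cholesterol synthesis genes were sparse, with 2 genes at 50 UMIs or more, and had medians of -0.18 with HDCA and -0.42 in the knockout, or 0.95 and -0.66 without the cells holding other types' genes. Lysosome and glycolysis lists had medians between -0.02 and 0.06 in both comparisons.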

How the data were processed

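The liver cells were profiled with 10x Genomics 3′ kits, with a TCR library beside each RNA library. The deposited matrices hold raw UMI counts per gene and barcode, made by the authors with Cell Ranger 8.0.1 per the file headers. The submitters' processing notes name both mm10 and GRCm39. The deposited TCR contigs were used only to leave out barcodes.

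Members were found by the rule in all barcodes. Cells with at least 200 genes, under 10% mitochondrial UMIs and no Scrublet doublet call were kept (scanpy 1.11.5); Scrublet marked 1031 barcodes (4.32%), 1 of them a member. UMIs were summed over members per library and divided to CPM. Intervals are exact at 95% (scipy 1.17.1): conditional for ratios, Poisson for levels, Clopper-Pearson for shares. A gene at 0 UMIs was given the limit that 3 counts allow. With 1 library a group there was no test, and the ratio calculation was checked on simulated data.

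A gene counted as apart at 2-fold, among genes with at least 50 UMIs over both libraries. Lists were described over members with at least 20 UMIs. The genes named were the 8 highest and 8 lowest ratios whose interval leaves out 1 and of which no cell held over 25% of the UMIs of the higher library, the 12 highest and 12 lowest against classical-type monocytes, and the most abundant or 2-fold members of each list. The members, lists and tests were chosen with earlier results of these data known. The removal of cells holding other types' genes, the removal of a gene's top cell, the MHC class II line, the line of 0.2 (log2) for list medians and the promoter motifs were chosen after seeing the data. Depth limits single genes: in a library of members, 3 counts are 6.49, 3.47 and 5.41 CPM.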

Additional observations from a re-analysis of the deposited data

Results flagged for a closer look

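4 values in patrolling monocytes lay in the opposite direction from those in the monocytes with F13a1 or Fn1 of the same libraries, and the differences between the classes were not tested. Lists are given here where both medians lay at least 0.2 (log2) from 0 with at least 5 genes measured, and genes among the highest or lowest ratios where the interval in the other monocytes left out 1 on the opposite side. Other lists also had medians of opposite sign, but not with both at least 0.2 from 0.

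Tnf had a log2 ratio of -2.07 in the knockout against the wild type on HDCA, with 18 UMIs in the knockout and 118 in the wild type, while the other monocytes had a ratio of 1.57 (1.29 to 1.90). Rasgef1b had a log2 ratio of -1.59 in the same comparison, on 108 and 23 UMIs, while the other monocytes had a ratio of 1.5 (1.13 to 1.99). It was -0.32 without the cells holding other types' genes and -0.80 in thinned cells.

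The inflammatory cytokine and chemokine list had a median log2 ratio of 0.52 with HDCA against WT HFD, and -0.20 in the other monocytes. The MHC class II list had a median of -0.35 with HDCA, and 0.54 in the other monocytes, where 9 of 9 measured genes were higher. As means over cells the median in patrolling monocytes was 0.037.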

How the results depend on the processing

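No paired analysis was possible because each group was 1 library and the labels give no replicate numbers. The alternatives were other cell filters, marker lines, scalings, UMI minimums, thinning to 2000 UMIs, means over cells, and leaving out cells. The number of lists whose median lay beyond 0.2 stayed within 1.5 times in the 20 cases computed. 17 share ratios and 307 single-gene ratios stayed within their counting intervals, while 1 and 13 moved past them. 343 list medians moved by no more than the half-width of the log2 interval of their list's summed ratio, 94 by more, and 3 that lay at least 0.2 from 0 turned. The share ratio in the knockout was 1.18 as a share of monocyte-type cells. With HDCA, genes at least 2-fold apart numbered 43 of 1573 after thinning, 436 of 6823 with a minimum of 20 UMIs and 173 of 4147 as means over cells. For the knockout they numbered 35 of 1721, 371 of 6967 and 123 of 4335, and 51 of 4138 without the cells holding other types' genes. Against classical-type monocytes they numbered 284 of 3214 after thinning and 528 of 7089 without it. With the lower minimum, the higher share of the genes apart went from 63.6% to 48.4% with HDCA and from 23.4% to 42.9% in the knockout. As means over cells, the MHC class II median with HDCA turned to 0.037 and the NF-kB median to -0.039. The MHC class II median in the knockout turned to 0.35 without the cells holding other types' genes. The cause of these moves was not tested. With 1 library a group the spread between mice is unknown here, and with 95, 170 and 104 cells genes under 50 UMIs are poorly resolved.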
